A study of Oryza sativa with 18 samples.

Results

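The comparison described here is between crown root tips of the rice line oscoi2 and of WT plants, both sampled 6 h after a treatment with 5 µM JA. It uses 6 of the 18 RNA-seq libraries of the series, 3 of oscoi2 plants and 3 of WT plants, chosen by their labels alone. All plants were of the cultivar Kitaake. The oscoi2 plants were homozygous for a CRISPR-Cas9 edit of the F-box gene OsCOI2 (LOC_Os03g15880), and WT plants carried no edit. Each library came from root tips pooled over many 6-day-old plants, and the oscoi2 group is a single edited line, so a difference between the groups is a difference between this line and WT plants. A further 6 libraries, of oscoi2 plants and WT plants 6 h after a mock treatment with the solvent DMSO, show which differences were already there without JA. The line oscoi1ab, edited in OsCOI1a and OsCOI1b, is used for values side by side. Its libraries also entered the common fit of all 18 libraries, and so the gene filter, the scaling and the estimates of variation behind each test.

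Jasmonate acts in plants through its isoleucine conjugate, JA-Ile. A COI F-box protein, part of an SCF ubiquitin ligase, binds JA-Ile together with a JAZ repressor, and the JAZ protein is then degraded. Transcription factors such as MYC2 that the JAZ repressors hold back are thereby freed. Among their targets are the genes of JA synthesis, of JA-Ile breakdown and of the JAZ repressors themselves, so that these groups serve as readouts of the pathway, and in rice the response extends to antimicrobial diterpenoids, the phytoalexins. Rice has 3 COI genes, OsCOI1a, OsCOI1b and OsCOI2.

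The sites that the guide RNAs of the oscoi2 line address in OsCOI2, on chromosome 3, are shown because they define the line. They are written 5′ to 3′ with the PAM, the motif that Cas9 requires beside its target, in capitals.
oscoi2_gRNA1: ttcgacaattgcgcacaaggAGG
oscoi2_gRNA2: atattacaagactttgccggTGG
Short edits at these sites leave most of the transcript as it was, so its count is no direct check of the edit. After JA, OsCOI2 stood at 43.9, 44.1 and 48.1 CPM in WT plants and at 22.6, 28.6 and 22.3 CPM in oscoi2 plants. CPM relate a count to the library total on the TMM scale and are not divided by gene length. The groups did not overlap, with log2FC -0.89 ± 0.14 (SE), adjusted p = 0.000451, and since a gene was called a DEG only at an adjusted p under 0.01 and an absolute log2FC of 1 or more, up or down, OsCOI2 was not called. Without the second oscoi2 library its log2FC was -1.02 and it was called. In mock-treated plants the log2FC of OsCOI2 was -0.84. Neither of the other receptor genes was called, with log2FC 0.08 ± 0.29 (SE) for OsCOI1a and 0.06 ± 0.11 (SE) for OsCOI1b.

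Totals of the 6 libraries lay between 103008645 and 109614507 counts, and as low counts cluster near multiples of 3.72, a count is not a read pair. TMM factors were 0.868 to 0.883 in WT plants and 0.949 to 0.975 in oscoi2 plants, and the 10 most abundant genes took 6.77% to 7.63% and 6.01% to 6.39% of the counts. Libraries of a group differed from each other by more than counting noise. The first principal component held 42.88% of the variance of the 6 libraries and separated the groups. Of 7 genes that mark root tissue, such as OsLsi1, none was called, and their summed level was 2107 to 2866 CPM in WT plants and 2210 to 3074 CPM in oscoi2 plants. In pooled tissue such as this, fewer cells of a type and less RNA per cell cannot be told apart. The libraries of a group are biological replicates by the study's methods. No coordinates are given, and the number after "Os" in a locus name is its chromosome.

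Of 30907 genes tested, 1213 were DEGs between oscoi2 and WT plants after JA, or 3.92%. In oscoi2 plants 527 of them (1.71% of the genes tested) were higher and 686 (2.22%) were lower. The median log2FC was 1.59 for the higher and -1.62 for the lower DEGs, 187 and 236 of them differed by more than 4-fold, and the median over all genes was 0.02. Of all genes tested, 32.0% had libraries that did not overlap between the groups, and of the DEGs 1210 did. Low abundance was rare among the DEGs, 60 having a mean under 1 CPM in both groups, while 51 were at 0 in all WT libraries and 19 at 0 in all oscoi2 libraries. The split between directions depends on the scaling, the test and the libraries fitted. Lower genes were 56.55% of the DEGs with TMM and 38.49% with library size alone, which moved the median of all genes to 0.17. With TMM kept, they were 69.98% with limma-voom as the test and 72.03% in a fit of the compared libraries alone. Without the second WT library they were 49.17%. Changes are reported here relative to the TMM scale. When the third WT library was left out the number of DEGs fell to 731. Between mock-treated oscoi2 and WT plants there were 116 DEGs, 0.375% of the genes, with 68 (0.220%) higher and 48 (0.155%) lower. This count was 256 without the second oscoi2 library and 47 to 62 without any other single library of the comparison. The interaction contrast, which asks whether the line difference after JA differs from the line difference under mock, called 908 genes, or 2.94%, of which 404 (1.31%) had a larger and 504 (1.63%) a smaller value after JA. Without the second oscoi2 library after JA or the third under mock it called 596 and 586.

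**Figure D1:**
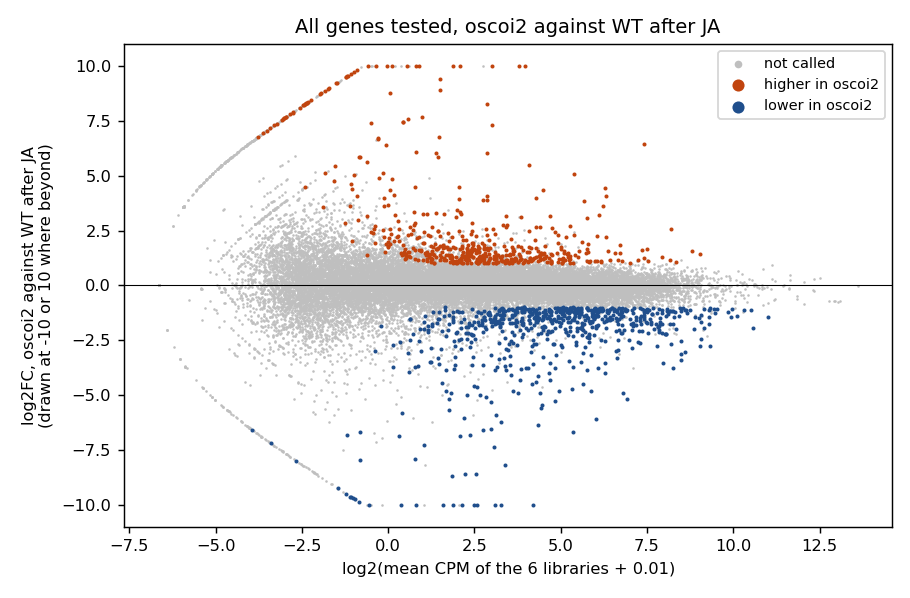
Log2FC of oscoi2 against WT plants after JA (vertical axis, drawn at the edge of the plot beyond 10) against the log2 of the mean CPM of the 6 libraries plus 0.01 (horizontal axis), 1 point for each of the 30907 genes tested, with DEGs in colour. Of the DEGs, 527 lie above and 686 below the line of no difference.

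Genes are grouped in lists that the study drew up in part from these libraries, with a few lists added here with earlier results known, so the direction of a list is no independent evidence. Beside each count of calls in a list after JA stand the shares over all genes tested, 1.71% called higher and 2.22% called lower. Beside each count of genes whose libraries did not overlap stands 32.0% of all genes, for both directions together. Most JAZ repressor genes were lower in oscoi2 than in WT plants. Of the 15 OsJAZ genes listed, 14 could be tested, 9 were called lower, none was called higher and 5 did not pass, and 13 had all their oscoi2 libraries below all their WT libraries. The median log2FC of the 14 was -1.74, against 0.02 over all genes, and in mock-treated plants it was 0.30 with no call in either direction.
OsJAZ1 (LOC_Os04g55920) stood at 1195, 1271 and 1381 CPM in WT plants and 594, 560.1 and 527 CPM in oscoi2 plants. Every oscoi2 library lay below every WT library, at 43.7% of the WT mean on average, and the difference passed (log2FC -1.19 ± 0.10 (SE), adjusted p = 3.59e-06). The largest fall among the called JAZ genes was that of OsJAZ9 (LOC_Os03g08310), with 40.6, 48.5 and 59.5 CPM in WT plants and 1.86, 2.08 and 3.64 CPM in oscoi2 plants. The groups were far apart, the oscoi2 mean being 5.102% of that in WT plants (log2FC -4.29 ± 0.52 (SE), adjusted p = 4.83e-05). Next to OsJAZ9 on the chromosome, by the order of the locus names, OsJAZ11 (LOC_Os03g08320) had 452, 468 and 589 CPM against 83.1, 70.1 and 81.6 CPM. Its oscoi2 libraries were close to each other and all below WT plants (log2FC -2.68 ± 0.42 (SE), adjusted p = 0.000522). OsJAZ10 (LOC_Os03g08330), the last gene of that cluster, had a log2FC of -1.49 ± 0.35 (SE). How reads shared by similar copies were assigned is not given in the sources used here, so the shares of OsJAZ9, OsJAZ10 and OsJAZ11 are uncertain.
A steady level marked OsJAZ12 (LOC_Os10g25290), with 247, 224 and 307 CPM in WT plants and 43.3, 43.8 and 44.97 CPM in oscoi2 plants. It differed by -2.56 ± 0.42 (SE) in log2FC, and the groups were apart. The remaining calls were OsJAZ6 at -1.15 ± 0.14 (SE), OsJAZ8 at -1.85 ± 0.27 (SE), OsJAZ5 at -3.05 ± 0.68 (SE) and OsJAZ13 at -2.48 ± 0.56 (SE). OsJAZ5, OsJAZ10 and OsJAZ13 lost their calls when any single one of the 6 libraries was left out, with log2FC of -3.29 to -2.77, -1.67 to -1.36 and -2.85 to -2.22, so that 6 calls were left each time.
Below the limits stayed OsJAZ2 at -2.59 ± 0.64 (SE, adjusted p = 0.0109), OsJAZ3 at -0.88 ± 0.27 (SE, 0.0378), OsJAZ4 at -1.62 ± 0.58 (SE, 0.0678) and OsJAZ7 at -0.80 ± 0.21 (SE, 0.0147). OsJAZ4 was uneven within oscoi2 plants, at 68.5, 56.9 and 14.2 CPM against 118, 157 and 156 CPM in WT plants. OsJAZ15 was at 0 in all WT libraries and at 0, 0 and 0.0993 CPM in oscoi2 plants, below the 0.125 CPM that 3 read pairs are worth.
JA raised JAZ genes in both lines. Against mock, their median log2FC was 3.97 in WT plants, with 13 called higher where 14.0% of all genes were called, and 1.78 in oscoi2 plants, with 9 called higher where 4.46% of all genes were called. The interaction contrast called 7 of the 14, all toward a smaller response in oscoi2 plants, the largest being OsJAZ9 at -4.78.

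Genes for the enzymes that make JA were mostly lower as well, with 1 exception. Of 9 genes of JA synthesis and conjugation, 5 were called lower, 1 higher and 3 did not pass, with a median log2FC of -1.12 against 0.02 over all genes. OsAOS1 (LOC_Os03g12500), an allene oxide synthase that channels lipid hydroperoxides into the JA route, stood at 27.9, 73.3 and 77.4 CPM in WT plants and 3.56, 1.69 and 1.003 CPM in oscoi2 plants. The oscoi2 libraries were all far below those of WT plants, at 3.499% of the WT mean (log2FC -4.83 ± 0.66 (SE), adjusted p = 0.000141). Upstream of it, the 13-lipoxygenase gene OsLOX9 (LOC_Os08g39840) had 37.96, 83.7 and 85.01 CPM in WT plants and 9.67, 6.19 and 2.95 CPM in oscoi2 plants. The WT libraries were spread about 2-fold and still did not overlap with the oscoi2 libraries (log2FC -3.46 ± 0.53 (SE), adjusted p = 0.000396). OsPLD4 (LOC_Os06g40170), a phospholipase D gene that the study lists with JA synthesis, was at 251, 336 and 319 CPM and 92.5, 59.1 and 131 CPM. That difference (log2FC -1.68 ± 0.32 (SE), adjusted p = 0.00194) lost its call without the first oscoi2 library, at an adjusted p of 0.01. Smaller falls were called for OsAOS2 at -1.65 ± 0.21 (SE) and for OsOPR7, a reductase of the precursor OPDA, at -1.12 ± 0.11 (SE). The allene oxide cyclase gene OsAOC, at -0.78 ± 0.14 (SE), and OsJAR1, whose enzyme conjugates JA to isoleucine, at -0.81 ± 0.16 (SE), had adjusted p of 0.00146 and 0.00297 but stayed under the 2-fold limit, and OsPLD5 had a log2FC of -0.59 ± 0.31 (SE).
The exception was OsJAR2 (LOC_Os01g12160), a second conjugating enzyme, which had 1.92, 1.499 and 0.593 CPM in WT plants and 6.05, 5.78 and 4.56 CPM in oscoi2 plants. Its oscoi2 libraries were all higher (log2FC 2.03 ± 0.42 (SE), adjusted p = 0.00364), and the call was lost without the first or second oscoi2 library or the second or the third WT library. In WT plants OsJAR2 fell under JA, with a log2FC against mock of -3.77, and in oscoi2 plants the value was -0.39.

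Genes whose enzymes oxidise JA-Ile and so remove the signal were lower in oscoi2 plants. Of 5 genes of JA-Ile catabolism 4 were called lower and none higher, with a median log2FC of -1.88. OsCYP94B4 (LOC_Os11g29290), a cytochrome P450 of the family that hydroxylates JA-Ile, had 315, 472 and 339.5 CPM in WT plants and 120.3, 107 and 105 CPM in oscoi2 plants. Here the oscoi2 libraries were nearly equal and well below WT plants (log2FC -1.76 ± 0.27 (SE), adjusted p = 0.000455). OsCYP94C2b (LOC_Os12g05440), from the branch that carries the oxidation further, had 110.0, 119 and 81.8 CPM and 27.03, 16.7 and 21.5 CPM. Here too, all oscoi2 libraries were lower (log2FC -2.25 ± 0.33 (SE), adjusted p = 0.000269). OsCYP94B5 stood at -3.63 and OsCYP94C2a at -1.88 in log2FC. Both calls were lost without the first or the second oscoi2 library, which left 2 of the 4, and OsCYP94B5 also without the third. The amidohydrolase gene OsAH8, at -0.44 ± 0.10 (SE), did not reach the fold limit.
Of 3 JA-responsive regulators, 2 were called lower. OsMYC2 (LOC_Os10g42430), the bHLH factor that JAZ proteins bind, had 256, 302 and 264 CPM in WT plants and 144, 125 and 138 CPM in oscoi2 plants, 49.5% of the WT mean. The groups did not overlap, but its log2FC of -1.01 ± 0.13 (SE, adjusted p = 9.03e-05) lies at the fold limit, and the call was lost without the second oscoi2 or second WT library and with library size alone, where the log2FC was -0.87. The MYB gene OsJAMYB (LOC_Os11g45740) had 184, 197 and 265 CPM against 47.3, 80.7 and 31.7 CPM. All oscoi2 libraries were lower (log2FC -2.02 ± 0.39 (SE), adjusted p = 0.00225), and that call was lost without the first or the third oscoi2 library or the third WT library. With any single one of these 5 libraries left out, 1 of the 2 calls was left. OsRERJ1 was under 2 CPM in every library and did not pass. None of the 3 regulators was called in the interaction contrast.

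**Figure D2:**
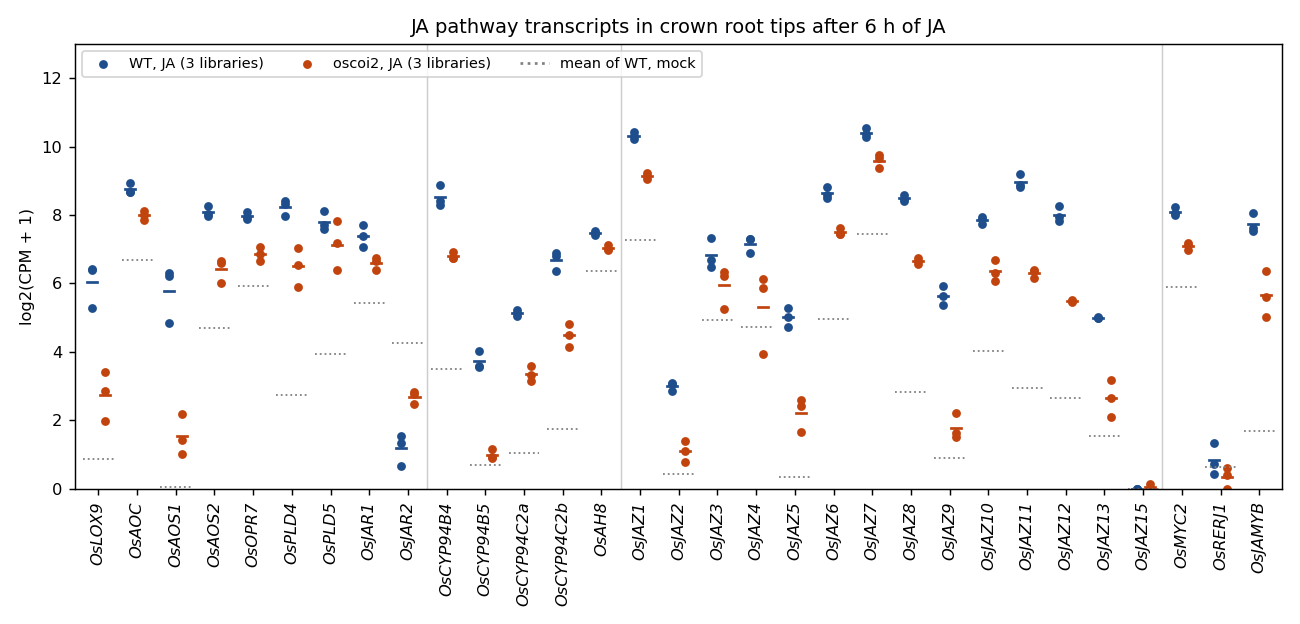
Level as log2(CPM + 1) (vertical axis) of genes of JA synthesis, JA-Ile catabolism, the JAZ family and 3 regulators, with 1 point for each of the 3 WT and 3 oscoi2 libraries after JA, a short bar at their mean and a dotted line at the mean of mock-treated WT plants. The oscoi2 libraries lie below the WT libraries for most genes, for OsJAZ9 at 1.86, 2.08 and 3.64 CPM against 40.6, 48.5 and 59.5 CPM, and above them for OsJAR2.

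Genes of the plastid MEP pathway, which supplies the isoprenoid precursors from which diterpenoids are built, were lower. All 5 genes of the list were called lower in oscoi2 plants, with a median log2FC of -2.63. OsDXS3 (LOC_Os07g09190), for the first enzyme of the pathway, stood at 91.4, 272 and 280.1 CPM in WT plants and 3.199, 13.9 and 4.37 CPM in oscoi2 plants. The first WT library was the lowest of its group and was still above all oscoi2 libraries (log2FC -4.90 ± 0.98 (SE), adjusted p = 0.00282), and the call was lost without the first or the third oscoi2 library. OsDXR (LOC_Os01g01710), for the reductoisomerase that follows, had 248, 365 and 534 CPM and 53.6, 68.8 and 47.4 CPM. Its groups were well separated (log2FC -2.76 ± 0.27 (SE), adjusted p = 9.56e-06). Further along the pathway OsCMK stood at -2.03 ± 0.20 (SE) and OsHDS at -2.22 ± 0.28 (SE). OsGGPS1 (LOC_Os07g39270), for the synthase of geranylgeranyl diphosphate, the diterpenoid precursor, had 158, 288 and 373 CPM in WT plants and 42.9, 52.7 and 36.7 CPM in oscoi2 plants. Again no library of one group reached into the other (log2FC -2.63 ± 0.29 (SE), adjusted p = 2.4e-05).
Of the diterpenoid phytoalexin genes themselves, 7 of 19 were called lower, none higher and 12 did not pass, although 18 of the 19 had all oscoi2 libraries below all WT libraries. Over all genes 32.0% did not overlap, in either direction. Their median log2FC was -4.63, or -4.03 when genes at 0 in a group are set to the bound that 3 read pairs allow. The interaction contrast called 1 of the 19.
OsKSL4 (LOC_Os04g10060), a diterpene synthase of the momilactone route, stood at 8.49, 10.2 and 27.8 CPM in WT plants and 0.144, 0.34 and 0 CPM in oscoi2 plants. It was near the floor in every oscoi2 library (log2FC -6.56 ± 0.98 (SE), adjusted p = 0.000315). OsKSL10 (LOC_Os12g30824), a related synthase, was at 2.07, 7.22 and 12.1 CPM in WT plants and 0.0482, 0 and 0 CPM in oscoi2 plants, with an adjusted p of 0.000586. OsCPS2 (LOC_Os02g36210), an ent-copalyl diphosphate synthase that feeds other phytoalexins, had 5.85, 10.1 and 9.003 CPM against 0, 0.208 and 0 CPM. Of both genes oscoi2 plants held about 1 to a few read pairs at most, so no fold is given, and for OsCPS2 the adjusted p was 0.00145. The P450 gene OsCYP76M7 (LOC_Os02g36110) had 16.6, 45.4 and 49.99 CPM in WT plants and 1.898, 2.398 and 1.07 CPM in oscoi2 plants. The groups did not overlap (log2FC -4.38 ± 1.02 (SE), adjusted p = 0.00778), yet the call was lost without each library except the first of WT plants, and reads of neighbouring CYP76M copies may be shared. The other calls were OsCYP76M6, OsTPS28 and OsCYP71Z21, which were at 0 in all oscoi2 libraries and at most 4.63 CPM in a WT library.
Several members with more counts did not pass. OsCPS4, the syn-copalyl diphosphate synthase gene at the head of the momilactone route, had 96.4, 289 and 372 CPM in WT plants and 5.13, 43.2 and 8.05 CPM in oscoi2 plants. The second oscoi2 library was well above the other two, and the log2FC of -3.75 ± 1.36 (SE) had an adjusted p of 0.0727. The same library was also the highest of oscoi2 plants for OsCYP99A2, OsCYP99A3, OsMAS, OsKSL8 and OsCYP701A8, none of which was called.
Of 3 phytoalexin regulators tested, 2 were called lower. OsDPF (LOC_Os01g09990), a bHLH factor of diterpenoid phytoalexin synthesis, stood at 58.5, 98.4 and 128 CPM in WT plants and 3.796, 5.81 and 3.01 CPM in oscoi2 plants. It was at 4.42% of the WT mean (log2FC -4.50 ± 0.95 (SE), adjusted p = 0.00411), and without any single oscoi2 library or the third WT library its call was lost and 1 of the 2 was left. OsWRKY10 (LOC_Os01g09100) had 228, 325 and 283 CPM and 87.4, 90.6 and 77.9 CPM. No library overlapped (log2FC -1.71 ± 0.21 (SE), adjusted p = 7.08e-05). The bZIP gene OsTGAP1 had a log2FC of -0.61 ± 0.13 (SE) and stayed under the fold limit. The interaction contrast called none of the 3 regulators.

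**Figure D3:**
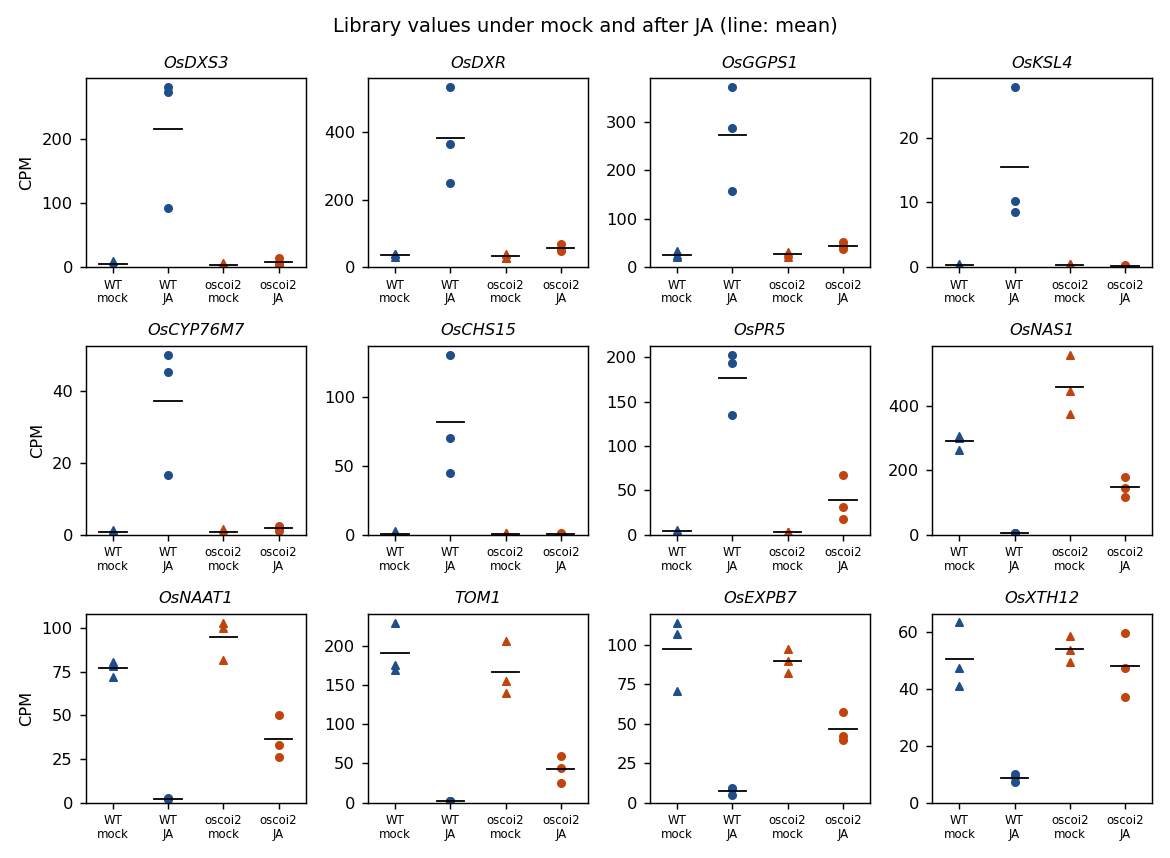
Level in CPM (vertical axis, from 0) of 12 genes in WT plants (blue) and oscoi2 plants (orange) under mock (triangles) and after JA (circles), 1 point per library, with a line at the mean. For OsDXR the oscoi2 libraries after JA lie at 53.6, 68.8 and 47.4 CPM, below WT plants after JA at 248, 365 and 534 CPM, and for OsNAS1 at 118, 181 and 146 CPM, above WT plants after JA at 6.63, 6.89 and 6.97 CPM.

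Phenylalanine, the entry to phenylpropanoids, is made through the shikimate pathway, whose genes differed less. Of 8 genes 1 was called lower, with a median log2FC of -0.70. That gene was OsADT (LOC_Os04g33390), for the dehydratase at the last steps to phenylalanine, with 211, 264 and 268 CPM in WT plants and 106, 71.7 and 100.4 CPM in oscoi2 plants. All oscoi2 libraries were below WT plants (log2FC -1.42 ± 0.25 (SE), adjusted p = 0.00128). OsDHQS, the dehydroquinate synthase gene, had a log2FC of -0.80 ± 0.11 (SE) at an adjusted p of 0.000196, under the fold limit. The interaction contrast called 6 of the 8 toward a smaller JA response in oscoi2 plants, with a median log2FC against mock of 1.49 in WT and 0.40 in oscoi2 plants.
Of 26 phenylpropanoid genes 8 were called lower, none higher and 18 did not pass, with a median log2FC of -1.13, and 5 were called without the third oscoi2 or the third WT library. OsLAC10 (LOC_Os02g51440), a laccase of the kind that polymerises lignin, was at 9.497, 16.1 and 25.3 CPM in WT plants and at 0 in all oscoi2 libraries. It was at least 136-fold lower in oscoi2 plants against a floor of 3 read pairs per library, with an adjusted p of 1.68e-05. In mock-treated plants its counts were at or near 0 in both lines. OsCHS15 (LOC_Os07g34260), of the chalcone synthase type, had 44.9, 70.1 and 130.1 CPM in WT plants and 0.829, 1.11 and 0.407 CPM in oscoi2 plants. Even the lowest WT library was far above all of oscoi2 plants (log2FC -6.70 ± 1.14 (SE), adjusted p = 0.000943). In the lignin route, OsCAld5H (LOC_Os10g36848), for the P450 that leads to syringyl units, had 80.2, 169 and 146 CPM against 18.7, 28.4 and 22.03 CPM. Those groups did not overlap (log2FC -2.52 ± 0.37 (SE), adjusted p = 0.000263). Os4CL5 (LOC_Os08g34790), a 4-coumarate:CoA ligase gene, had 64.9, 78.1 and 110.5 CPM and 22.9, 15.4 and 19.2 CPM. It was lower in every oscoi2 library (log2FC -2.14 ± 0.37 (SE), adjusted p = 0.000952). At the entry step, OsPAL7 stood at -1.99 ± 0.41 (SE) and OsPAL4 at -1.46 ± 0.33 (SE), while OsPAL3 at -1.45 ± 0.38 (SE) did not pass, and the PAL copies may share reads. The last calls were OsCHI4 at -1.498 ± 0.18 (SE) and OsCAD8A at -1.13 ± 0.25 (SE).

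Of 22 defense genes 6 were called lower, none higher and 16 did not pass, with a median log2FC of -1.12. Over all genes tested 2.22% were called lower. The interaction contrast called 2 of the 22. OsPR5 (LOC_Os12g43380), a thaumatin-like pathogenesis-related protein, stood at 194, 203 and 136 CPM in WT plants and 67.3, 31.4 and 18.1 CPM in oscoi2 plants. The oscoi2 libraries were spread but all lower (log2FC -2.19 ± 0.37 (SE), adjusted p = 0.000828). OsPOX223 (LOC_Os07g48020), a peroxidase, had 206, 214 and 218 CPM and 81.9, 97.6 and 55.6 CPM. WT plants were uniform and above all oscoi2 libraries (log2FC -1.44 ± 0.23 (SE), adjusted p = 0.000522). The WRKY factor gene OsWRKY28 (LOC_Os06g44010) had 32.6, 38.6 and 70.3 CPM in WT plants and 8.54, 5.53 and 8.22 CPM in oscoi2 plants. Its call (log2FC -2.67 ± 0.53 (SE), adjusted p = 0.00266) was lost without any single oscoi2 library or the third WT library, and that of OsWRKY71 at -1.42 ± 0.28 (SE) without the first or second oscoi2 or the third WT library. OsNPR1, a coactivator of salicylate signalling, stood at -1.13 ± 0.10 (SE) and OsRBBI2, a Bowman-Birk protease inhibitor, at -1.03 ± 0.18 (SE). Under mock OsNPR1 had a log2FC of -0.57 (adjusted p = 0.00679), and the interaction contrast called neither OsNPR1 nor OsRBBI2. The PR10 genes RSOsPR10 and OsPR10b, at -1.77 ± 0.66 and -1.98 ± 0.70 (SE), did not pass. They belong to the same family and may share reads, which was not tested.

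Over all DEGs, the largest losses in CPM included peroxidase, lectin and protease inhibitor genes. LOC_Os04g59190, a peroxidase, had 3053, 3238 and 2670.0 CPM in WT plants and 1257, 995 and 1031 CPM in oscoi2 plants. Every oscoi2 value was lower (log2FC -1.45 ± 0.16 (SE), adjusted p = 2.4e-05). LOC_Os01g24710, the jacalin-related lectin SalT, had 3009, 1798 and 2430.0 CPM and 462, 843 and 574 CPM. Its call (log2FC -1.95 ± 0.46 (SE), adjusted p = 0.00829) was lost without each library except the second of WT plants. The Bowman-Birk inhibitor gene LOC_Os01g03330 had 1483, 1721 and 1657 CPM against 639, 633 and 550.2 CPM. It was lower in all oscoi2 libraries (log2FC -1.42 ± 0.13 (SE), adjusted p = 7.7e-06). LOC_Os08g37210, a patatin-like gene, had 827, 1225 and 1287 CPM in WT plants and 211, 196 and 82.9 CPM in oscoi2 plants. With log2FC -2.77 ± 0.63 (SE), adjusted p = 0.00655, it lost its call without each library except the first of WT plants. The peroxidase gene LOC_Os05g04380 stood at -1.14 ± 0.16 (SE), and the thionin-like gene LOC_Os07g25050 at -1.14 ± 0.26 (SE), a call that was lost without any single library, and its log2FC under mock was -1.49.
The largest falls in fold were in genes at or near 0 in all oscoi2 libraries after JA. LOC_Os09g29670, an ABC transporter of the ABCG type, was at 32.02, 50.1 and 29.03 CPM in WT plants and at 0 in all oscoi2 libraries. It was at least 296-fold lower (adjusted p = 0.00415), a call lost without any single oscoi2 library or the third WT library. The terpene synthase genes LOC_Os04g01810, at 8.04, 9.02 and 5.04 CPM in WT plants, and LOC_Os04g27670, at 2.24, 5.25 and 10.4 CPM, were at 0 in all oscoi2 libraries. They were at least 58.95-fold and at least 47.8-fold lower (adjusted p = 0.00114 and 0.000834). Both were also at 0 in every mock library of both lines. The hypothetical gene Os01g0124550 was at least 88.9-fold and LOC_Os12g30790, annotated as a retrotransposon protein, at least 70.2-fold lower. LOC_Os11g42370, a transferase gene, had 9.601, 9.15 and 17.1 CPM in WT plants and 0, 0.00944 and 0 CPM in oscoi2 plants, and LOC_Os04g33150, a desiccation-related protein gene, had 20.98, 13 and 23.5 CPM and 0, 0 and 0.0397 CPM. With at most a few read pairs in oscoi2 plants, these have no fold, and their adjusted p were 4.58e-05 and 6.75e-05. With limma-voom as the test, the genes named here for the largest falls in fold lost their calls, except LOC_Os04g33150.

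Genes of iron acquisition were higher in oscoi2 plants. Grasses release mugineic acids, made from nicotianamine, into the soil and take up the iron they bind. Of 7 genes of this system 5 were called higher, none lower and 2 did not pass, with a median log2FC of 3.98, and all 5 calls held without any single library. OsNAS1 (LOC_Os03g19427), a nicotianamine synthase, stood at 6.63, 6.89 and 6.97 CPM in WT plants and 118, 181 and 146 CPM in oscoi2 plants. WT plants were uniformly low and oscoi2 plants uniformly high (log2FC 4.44 ± 0.35 (SE), adjusted p = 1.91e-06). OsNAS2 (LOC_Os03g19420), its neighbour by the order of the locus names, had 9.09, 9.58 and 8.36 CPM and 137, 180.5 and 136 CPM. The difference was alike (log2FC 4.07 ± 0.37 (SE), adjusted p = 5.78e-06), and the pair may share reads. OsNAAT1 (LOC_Os02g20360), the aminotransferase of the next step, had 1.902, 2.902 and 2.11 CPM in WT plants and 33.2, 49.9 and 26.3 CPM in oscoi2 plants. No library overlapped (log2FC 3.98 ± 0.38 (SE), adjusted p = 8.13e-06). TOM1 (LOC_Os11g04020), which exports the mugineic acid, had 1.53, 2.11 and 2.61 CPM against 24.8, 59.4 and 43.6 CPM. Here too the groups stood apart (log2FC 4.36 ± 0.33 (SE), adjusted p = 1.08e-06). OsYSL15 (LOC_Os02g43410), the carrier that takes up the iron complex, had 13.3, 8.87 and 12 CPM in WT plants and 90.2, 109 and 89.1 CPM in oscoi2 plants. It was higher in every oscoi2 library (log2FC 3.08 ± 0.16 (SE), adjusted p = 2.55e-08).
OsIRO2, a bHLH regulator of these genes, had a log2FC of 0.97 ± 0.41 (SE, adjusted p = 0.119) and OsIRT1, a carrier of free ferrous iron, of -0.47 ± 0.35 (SE, 0.424). Under mock the median of the list was 0.30 with no call. JA lowered the same 5 genes in both lines, with log2FC against mock for TOM1 of -6.52 in WT and -1.97 in oscoi2 plants and for OsYSL15 of -3.90 and -1.24. The interaction contrast called 5 of the 7.

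Of 32 cell wall genes, 5 were called higher, none lower and 27 did not pass, with a median log2FC of 1.18, or 1.03 with genes at 0 set to their bound. The count was 3 without the third oscoi2 or the third WT library and 12 without the second WT library. OsEXPB7 (LOC_Os03g01270), a β-expansin that loosens the wall, stood at 4.99, 9.54 and 8.37 CPM in WT plants and 42.3, 39.9 and 57.5 CPM in oscoi2 plants. The oscoi2 libraries were all several-fold higher (log2FC 2.61 ± 0.25 (SE), adjusted p = 9.23e-06). OsXTH12 (LOC_Os06g48180), a xyloglucan endotransglucosylase/hydrolase, had 10.1, 7.21 and 9.15 CPM and 37.3, 47.5 and 59.9 CPM. Its groups were equally distinct (log2FC 2.45 ± 0.29 (SE), adjusted p = 4.66e-05). Against mock, the log2FC of OsXTH12 was -2.52 in WT plants and -0.16 in oscoi2 plants. The expansin gene OsEXP13 had 2.72, 4.62 and 2.36 CPM in WT plants and 8.13, 7.47 and 11.9 CPM in oscoi2 plants, and its call (log2FC 1.501 ± 0.32 (SE), adjusted p = 0.00464) was lost without the third oscoi2 library or the first or the third WT library. OsEXP31 and OsXTH16 were called at levels under 2 CPM in every library, OsXTH16 being at 0 in WT plants.
Of 4 cell cycle genes none was called. OsCDKB2, a mitotic cyclin-dependent kinase gene, had 26.2, 28.5 and 18.9 CPM in WT plants and 45.4, 33.05 and 43.1 CPM in oscoi2 plants. The groups did not overlap, with log2FC 0.72 ± 0.16 (SE), adjusted p = 0.00626, under the fold limit. OsCYCB1-1, a B-type cyclin gene, had a log2FC of 0.60 ± 0.15 (SE, adjusted p = 0.0123).
The largest gains in CPM were in genes of mixed kinds. LOC_Os07g34570 had 158, 62.98 and 34.5 CPM in WT plants and 572, 536 and 414 CPM in oscoi2 plants. All oscoi2 libraries were higher (log2FC 2.58 ± 0.41 (SE), adjusted p = 0.000574), and under mock the log2FC was 0.02. LOC_Os10g40510, of the lipid transfer protein family, stood at 1.56 ± 0.26 (SE) and LOC_Os10g38740 at 1.08 ± 0.14 (SE). LOC_Os10g31660 at 1.42 ± 0.27 (SE) lost its call without the third oscoi2 library or the first or the third WT library, and LOC_Os04g03579, a kinase with a lectin domain, at 1.16 ± 0.19 (SE) without the first oscoi2 library.

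All 41 photosynthesis genes had a positive log2FC in oscoi2 against WT plants after JA, but the number called depended strongly on the fit. Of 41 genes 4 were called higher, none lower and 37 did not pass, with a median log2FC of 1.63, or 1.40 with genes at 0 set to their bound. All oscoi2 libraries were above all WT libraries for 24, where 32.0% of all genes did not overlap in either direction. OsPsbR3 (LOC_Os08g10020), of photosystem II, had 1.14, 1.05 and 0.962 CPM in WT plants and 2.72, 9.27 and 4.66 CPM in oscoi2 plants. The second oscoi2 library was the highest (log2FC 2.40 ± 0.50 (SE), adjusted p = 0.00398), and without it or any single WT library the call was lost. OsPsbY (LOC_Os08g02630), of the same complex, had 2.07, 3.83 and 2.15 CPM and 6.27, 11.8 and 10.02 CPM. Its call (log2FC 1.80 ± 0.41 (SE), adjusted p = 0.00732) was lost without the second or the third oscoi2 or the first or the third WT library. OsPsb stood at 1.65 ± 0.27 (SE) and OsPsbP-3, at or near 0 in WT plants, was the fourth call. The count was 2 without the second oscoi2, first WT or the third WT library and 7 without the second WT library. It was 0 when only the 6 compared libraries were fitted, 15 with the likelihood ratio test and 24 with the replicate number as a block.
Under mock the median of the list was -1.18, with no call. The summed level of the list after JA was 135.3 to 271.5 CPM in WT plants and 325.0 to 709.2 CPM in oscoi2 plants. Genes that mark leaf tissue moved with it: none of 5 was called, their median log2FC was 1.98, and their sum was 8.59 to 26.0 CPM in WT and 30.1 to 96.9 CPM in oscoi2 plants after JA, against 175.2 to 531.8 and 57.7 to 187.3 CPM under mock. Among them OsRBCS2 was at 0 in all 6 libraries and OsLhcb1a stood at 0.31, 1.25 and 0.123 CPM in WT plants and 2.07, 8.87 and 7.24 CPM in oscoi2 plants. The leaf list and the photosynthesis list share OsLhcb1a and OsPsbO. The part of leaf RNA in these values was not tested.

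Only part of the transcription factor genes that the study classes as dependent on OsCOI2 were taken here, those it lists with a known function. The study made this choice in part on these libraries, so that their direction is no independent evidence. Of 20 genes listed as induced 7 were called lower in oscoi2 plants and none higher, with a median log2FC of -1.07. OsbHLH148 (LOC_Os03g53020) had 86.4, 91.2 and 135 CPM in WT plants and 29.9, 23.2 and 33.4 CPM in oscoi2 plants. All WT libraries were higher (log2FC -1.85 ± 0.29 (SE), adjusted p = 0.000493). OsNAC45 stood at -2.51 ± 0.38 (SE), OsERF35 at -1.58 ± 0.23 (SE) and OsWOX6 at -1.53 ± 0.25 (SE). Of 19 listed as repressed 3 were called higher and none lower, with a median of 0.84, a count that was 1 without the first oscoi2 or the first WT library and 5 without the second WT library. OsGATA7 (LOC_Os10g40810), a GATA factor gene, had 8.805, 11.97 and 4.29 CPM and 24.6, 13.5 and 43.03 CPM. The closest libraries of the groups nearly touched (log2FC 1.69 ± 0.39 (SE), adjusted p = 0.00732), and its call was lost without the first or the third oscoi2 or the first or the third WT library.

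**Figure D4:**
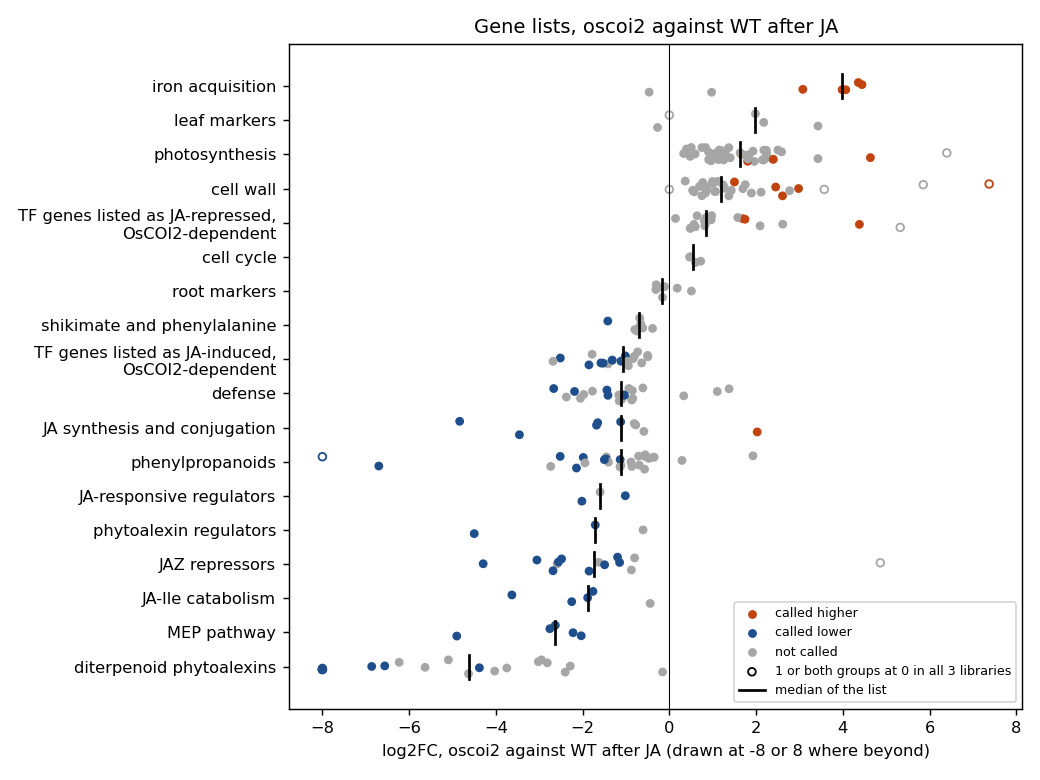
Log2FC of oscoi2 against WT plants after JA (horizontal axis, drawn at the edge of the plot beyond 8) for the members of each gene list except the receptors, 1 point per gene, orange for genes called higher, blue for genes called lower, grey for the others and hollow where a group is at 0 in all its libraries. The bar is the median of the list, 3.98 for iron acquisition and -2.63 for the MEP pathway.

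Some differences were present without JA. Of the 116 DEGs under mock, 65 were DEGs in the same direction after JA, which is 56.03% of the mock list and 5.36% of the JA list, and the 2 lists come from different libraries. Of the 65, 55 were higher and 10 lower in oscoi2 plants, and 1 gene was called in opposite directions. Of the 1213 DEGs after JA, 1033 had an adjusted p over 0.05 under mock, which does not show that they need JA. The interaction contrast called 515 of the 1213 in the same direction, or 42.46%, where it called 2.94% of all genes. It shares its JA libraries with the comparison after JA.
Among the 55, 20 were at 0 in all WT libraries after JA, 18 were at 0 in all WT libraries of both treatments, and 13 carry a transposon annotation. The share of such annotations over all genes tested was not determined. For 40 of the 55, every library of oscoi1ab plants after JA was also above every WT library. The same WT libraries served to choose the 55, and the share over all genes was not determined. In 9 of the 55 the mean of oscoi1ab plants after JA was at or under the floor of 0.125 CPM. The median log2FC of the 55 was 3.26, with genes at 0 set to their bound. By the locus names, 10 are on chromosome 11, which holds 1837 of the 30907 genes tested. Another 8 each are on chromosomes 1, 3 and 7, which hold 4359, 3816 and 2313 of the genes tested. LOC_Os03g02470, a conserved hypothetical gene, was at 0 in all WT libraries and at 42.7, 11.03 and 39.9 CPM in oscoi2 plants after JA and 29.6, 11.4 and 38.9 CPM under mock. It was at least 249.6-fold higher after JA (adjusted p = 0.000238), and it was at 0 in oscoi1ab plants after JA. LOC_Os03g18779, also conserved and hypothetical, was at 42.4, 28.2 and 12.3 CPM in oscoi2 plants and at 0 in WT plants. That makes it at least 221-fold higher (adjusted p = 9.79e-06). LOC_Os11g35300, of no known function, was at 14.8, 17.5 and 16.4 CPM in oscoi2 plants and at 0 in WT plants after JA. It was at least 129.9-fold higher (adjusted p = 9.23e-06), and oscoi1ab plants after JA had a mean of 12.4 CPM. With limma-voom as the test, LOC_Os03g02470, LOC_Os03g18779 and LOC_Os11g35300 lost their calls, at adjusted p of 0.205, 0.141 and 0.01015.
Another transcript that was low in WT plants and higher in both edited lines was LOC_Os07g32710, annotated as a retrotransposon protein, with 2.38, 7.503 and 1.599 CPM in WT plants, 358, 311 and 335 CPM in oscoi2 plants and a mean of 501 CPM in oscoi1ab plants after JA (log2FC 6.45 ± 0.47 (SE), adjusted p = 7.75e-07 for oscoi2 against WT plants). Also at 0 in WT plants, the non-coding transcript Os12g0599625 was at least 67.2-fold, LOC_Os11g11694, annotated as a retrotransposon protein, at least 59.2-fold and the pectinesterase gene LOC_Os03g19610 at least 23.4-fold higher in oscoi2 plants. LOC_Os07g34510, LOC_Os01g36064 and LOC_Os07g10850, all with transposon annotations, stood at 7.21, 5.29 and 4.33 CPM, 5.95, 5.24 and 5.77 CPM and 14.2, 15.2 and 14.2 CPM in oscoi2 plants and at 0.14 CPM or less in every WT library.
Of genes lower under both treatments, LOC_Os04g55650, for the cysteine protease oryzain alpha, had 643, 665 and 646 CPM in WT plants and 35.8, 52.3 and 96.9 CPM in oscoi2 plants after JA. Under mock it had 365, 349 and 346 CPM and 31.9, 58.8 and 124 CPM. The groups did not overlap under either treatment (log2FC -3.40 ± 0.40 (SE) after JA and -2.30 under mock). LOC_Os03g01880, of the LOG family that activates cytokinins, stood at -3.30 after JA and -2.64 under mock in log2FC, the peroxidase gene LOC_Os07g48060 at -3.08 and -3.08, and the TCP factor gene LOC_Os09g34950 at -2.60 and -2.50. For 3 of the 10 genes lower under both treatments, every oscoi1ab library after JA was also below every WT library. Here too the WT libraries served to choose the genes, and the share over all genes was not determined. LOC_Os01g13610, an isoflavone reductase homolog that was at 0 in oscoi2 plants under mock, had a log2FC of -3.29 after JA, a call lost without the second or the third oscoi2 or the second WT library. The gene called in opposite directions, LOC_Os03g61160, had 13.5, 12.3 and 9.09 CPM in WT plants and 17.4, 43.96 and 27.9 CPM in oscoi2 plants after JA. Under mock it had 66.5, 68.4 and 65.8 CPM and 16.5, 31.1 and 16.9 CPM, so oscoi2 plants were higher after JA and lower under mock. Its call after JA was lost without the second or the third library of either group.

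**Figure D5:**
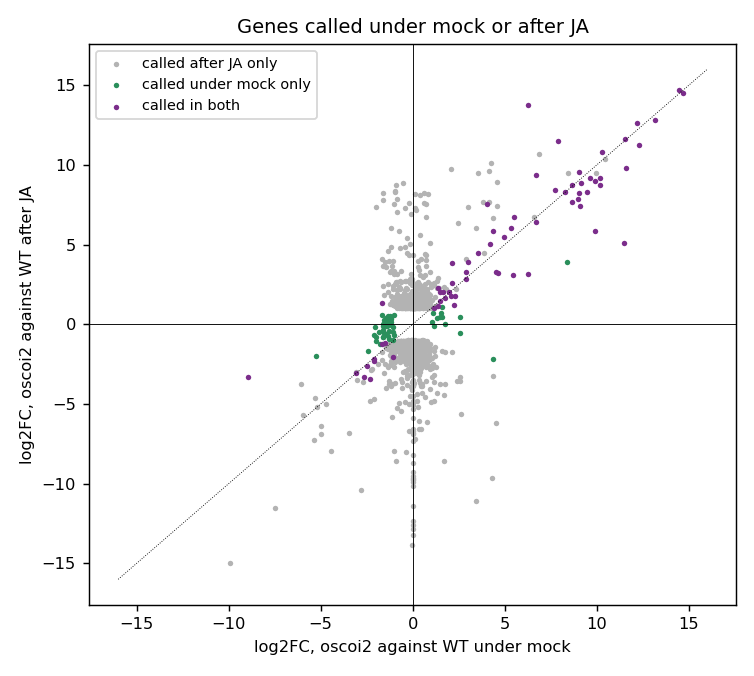
Log2FC of oscoi2 against WT plants under mock (horizontal axis) and after JA (vertical axis), 1 point per gene called in either comparison, purple where called in both, with a dotted line where the values are equal. Of the 65 genes called in the same direction in both, 55 lie in the upper right and 10 in the lower left. Values beyond 8 come from genes at or near 0 in a group and carry no exact size.

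For the lists above, oscoi1ab plants after JA can be set beside oscoi2 plants, with the reminder that both comparisons use the same WT libraries. The median log2FC against WT plants was -1.74 in oscoi2 and -0.04 in oscoi1ab plants for the JAZ genes, -2.63 and -0.11 for the MEP pathway, and 3.98 and -0.30 for iron acquisition. A direct contrast of oscoi2 against oscoi1ab plants after JA called 1387 genes, 4.49% of those tested. It called 9 of 14 JAZ genes, 5 of 5 MEP genes and 8 of 19 diterpenoid phytoalexin genes lower, and 5 of 7 iron acquisition genes higher, in oscoi2 plants.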

How the data were processed

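Crown root tips were measured by paired-end RNA-seq in 18 libraries. According to the paper and the labels, the authors trimmed reads with cutadapt, mapped them with HISAT2 on references of MSU7 and RAP-DB, assembled transcripts with StringTie and derived counts with their own script. Versions are not given in the sources used here. The deposited table holds expected counts, that is, estimated counts per gene as whole numbers without normalization, with both annotations merged.

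CPM were computed here on the TMM scale. The 30907 of 64687 genes with a count sum of at least 180 were tested with edgeR 4.0.16 (R 4.3.3) in 1 fit of 6 groups, TMM scaling and the quasi-likelihood F test. DEGs had a Benjamini-Hochberg FDR (the adjusted p) under 0.01 and an absolute log2FC of at least 1. Standard errors (SE) are the log2FC divided by the root of F. The floor is 3 read pairs of 3.72 counts per library, at most 0.125 CPM, and covers counting error only. The steps were tested on simulated data. DESeq2 1.42.0 and limma 3.58.1 served for alternatives, which were the test, scaling, filter, thresholds, samples, replicate block and each library left out, and pandas 2.3.3 and matplotlib 3.10.9 (Python 3.11.15) for tables and plots.

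Gene lists follow the study's own groupings, with iron, regulator and marker lists added, and were chosen with earlier results of these data known. Genes were named by rule: receptors, all JAZ genes, up to 4 called genes per list with the largest log2FC at 5 CPM or more, the 8 largest rises and falls, the 6 largest gains and losses in CPM, and the top genes called under both treatments. Other list members named with a value were chosen after their values were seen. Genes of a study list not tested had too few counts. Descriptions of genes outside the lists come from the study's annotation. Guide sites are those of the study.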

Additional observations from a re-analysis of the deposited data

Results flagged for a closer look

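The interaction contrast called 908 genes whose difference between oscoi2 and WT plants was not the same after JA as under mock (2.94% of the genes tested). The genes named in the text that are among them are given here. Its values are the log2FC of oscoi2 against WT plants after JA minus that under mock, so a negative value means that oscoi2 plants stood lower relative to WT plants after JA.
For JA synthesis the values were negative for OsAOS1 (-6.01), OsPLD4 (-2.60), OsAOS2 (-1.91), OsOPR7 (-1.54) and OsAOC (-1.19) and positive for OsJAR2 (3.38). Among genes of JA-Ile catabolism they were negative for OsCYP94C2b (-3.14), OsCYP94C2a (-2.37) and OsCYP94B4 (-1.94). The JAZ repressor genes were all negative, with OsJAZ1 (-1.23), OsJAZ6 (-1.60), OsJAZ9 (-4.78), OsJAZ10 (-2.45), OsJAZ11 (-3.39), OsJAZ12 (-2.93) and OsJAZ13 (-3.60). Of the genes for diterpenoid precursors and phytoalexins the contrast called OsDXR (-2.61), OsGGPS1 (-2.68), OsHDS (-2.03), OsCMK (-1.99) and OsKSL4 (-6.91). In the routes to phenylalanine and phenylpropanoids it called, among others not named in the text, OsADT (-2.26), OsDHQS (-1.27), OsCHS15 (-6.52), OsCAld5H (-2.69), Os4CL5 (-3.10), OsPAL7 (-3.19) and OsCHI4 (-1.84). Among transcription factor genes named in the text it called OsWRKY28 (-3.63), OsNAC45 (-2.35), OsbHLH148 (-2.09) and OsERF35 (-2.05). Positive values were found for the iron acquisition genes OsNAS1 (3.78), TOM1 (4.55), OsNAS2 (3.37), OsNAAT1 (3.68) and OsYSL15 (2.66). They were also positive for the cell wall genes OsEXPB7 (2.73), OsXTH12 (2.36) and OsXTH16 (9.37) and the photosynthesis genes OsPsbR3 (4.01), OsPsbY (2.99), OsPsb (2.20) and OsPsbP-3 (5.99). Those of OsXTH16 and OsPsbP-3, at or near 0 in WT plants after JA, have no exact size. The same holds for OsAOS1, with mock means of 0.044 CPM in WT and 0.103 CPM in oscoi2 plants, under the floor. It also holds for OsKSL4, near the floor in oscoi2 plants after JA. Among the genes with the largest losses in CPM the values were LOC_Os04g59190 (-1.15), LOC_Os01g03330 (-1.23) and LOC_Os05g04380 (-1.74). LOC_Os07g34570, among the largest gains, had 2.55, and LOC_Os03g61160, called in opposite directions under mock and after JA, had 2.99.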

How the results depend on the processing

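The number of DEGs after JA was 1213, with 527 higher and 686 lower, the number under mock 116 and that of the interaction contrast 908. With the likelihood ratio test 883 genes were higher after JA, 392 were called under mock and 1493 in the interaction contrast. DESeq2 called 1835 after JA (836 higher), 335 under mock and 1533 in the interaction contrast. An FDR limit of 0.05 gave 1947 (939 higher), 407 and 1619. Without a fold minimum there were 2356 DEGs after JA (1057 higher and 1299 lower) and 292 under mock, and a test for more than 2-fold change gave 203 (89 and 114), 31 and 50. A fit of the compared libraries alone gave 944 DEGs after JA (264 higher and 680 lower), of which 788 were among the 1213. It gave 24 DEGs under mock. Library size alone gave 831 higher genes after JA. Leaving out single libraries gave 731 to 1202 DEGs after JA (301 to 611 higher and 430 to 667 lower), 47 to 256 under mock and 586 to 925 in the interaction contrast. Dividing all counts by the step of the low values, an alternative chosen after the data were seen, gave 1375 DEGs after JA. Causes of these shifts were not tested, except that looser or stricter limits change counts by construction.

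Across genes, equal replicate numbers did not steadily pair WT with oscoi2 libraries. The deviations of equal-numbered WT and oscoi2 libraries correlated at 0.16, -0.188 and -0.157 after JA. Under mock they correlated at 0.482, 0.0853 and -0.0912. The summed level of the photosynthesis genes did follow the replicate number. It was lowest in the first and highest in the second replicate, in both lines and under both treatments. The summed level of the diterpenoid phytoalexin genes was also lowest in the first replicate, in both lines and under both treatments. With the replicate number as a block there were 1351 DEGs after JA, 244 under mock and 1101 in the interaction contrast. The block raised the calls among 41 photosynthesis genes from 4 to 24 and among 19 diterpenoid phytoalexin genes from 7 to 10. Between mock and JA, equal-numbered libraries correlated at 0.337, 0.376 and 0.287 in WT and at 0.215, 0.468 and 0.0913 in oscoi2 plants. A replicate block within each line, chosen after the data were seen, gave 1095 genes in the interaction contrast, 786 of them among the 908, and 31 photosynthesis genes in place of 5. With it JA changed 4355 genes in WT (4342 without it) and 1544 in oscoi2 plants (1378).

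Of 102 genes named by rule 87 were called, 61 of them without any single library and 20 under every alternative. The test for more than 2-fold change cost 51 of these calls and limma-voom 23. Among the calls lost with limma-voom were those of OsLAC10, OsKSL4, OsKSL10 and OsCPS2, which were at or near 0 in oscoi2 plants. Of 2040 values of named genes under an alternative, 1813 kept direction and call, 200 lost the call, 25 gained it and 2 did not keep their sign. OsCOI1b turned negative, at -0.069 without the second oscoi2 library and up to 0.138 without another. OsJAZ15 did not turn negative: it was at exactly 0 without the third oscoi2 library, the only one compared that held counts of it. Without another library it was at up to 5.44. Genes with a few read pairs in a group are limited by depth, and their fold changes have no exact size.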
